A study of Caenorhabditis elegans with 30 samples.

Results

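Dafachronic acids are the steroid hormones of Caenorhabditis elegans that decide between reproductive growth and arrest as a dauer larva. The 6 genes described here make, sense or oppose these hormones: daf-36, dhs-16, hsd-1, daf-9, daf-12 and din-1. They were picked by name, in a choice made with earlier results of these data known, and all 6 were found among the 46911 worm genes of the count table.

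Worms cannot make sterols and obtain cholesterol from food. The Rieske oxygenase DAF-36 starts the route by converting cholesterol to 7-dehydrocholesterol, the short-chain dehydrogenase DHS-16 carries out a later step that yields a 3-keto sterol, and the cytochrome P450 DAF-9 oxidizes the side chain to give dafachronic acid. HSD-1, which resembles 3-beta-hydroxysteroid dehydrogenases, acts in the XXX cells, a pair of neuroendocrine cells in the head that also hold DAF-9. The hormone binds the nuclear receptor DAF-12, a relative of the vertebrate vitamin D and liver X receptors. Without hormone, DAF-12 works with the co-repressor DIN-1, a relative of vertebrate SHARP, and promotes dauer formation and long life.

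The measurements come from whole larvae that hatched into buffer with no food and stayed arrested at the L1 stage. The wild type N2 was compared with the double mutant strain LRB444 [irld-39(duk1); irld-52(duk17)], called irld here, which carries alleles of 2 genes of the receptor L-domain family. It is a single strain, and neither mutation was measured alone. N2 and irld were each collected at 6, 12, 24, 48 and 72 h of arrest, which is 18, 24, 36, 60 and 84 h after bleaching, so that 10 groups had 3 biological replicates apiece. All groups were starved at 20 °C and none was fed, so that no group measures the pathway with food present.

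The 30 libraries of polyadenylated RNA held 7563687 to 19815884 gene-assigned reads (median 9650171). Defining genes of body wall muscle, intestine, neurons, hypodermis and primordial germ cells were detected in every library. Of 5 genes that mark early embryos, end-1, end-3, med-1 and tbx-35 stayed at or below 1.06 CPM in every library, and med-2 reached 4.31 CPM, with a mean of 0.645 CPM at 6 h and 2.86 CPM at 72 h. Summed over these 5 genes, N2 libraries held 1.175 to 1.232 CPM at 6 h and 2.431 to 3.224 CPM at 72 h. The sums in irld were higher, at 1.308 to 2.037 CPM and 3.705 to 5.189 CPM. At 12, 24 and 48 h the sums of the strains overlapped. Of 4 sperm genes, msp-3, msp-10 and spe-11 had 9, 4 and 48 counts over all libraries, and spe-9, with 565 counts, was detected in every library at up to 3.37 CPM. Of 6 genes of the adult intestine, vit-1 and vit-6 were the most abundant, at up to 17.08 and 14.72 CPM. Summed over vit-1 to vit-6, the mean was 18 CPM at 6 h and 10.29 CPM at 72 h in N2. In irld the mean sum was 17.62 CPM at 6 h and 12.38 CPM at 72 h. The libraries overlapped, with sums at 72 h of up to 20.61 CPM in N2 and 22.18 CPM in irld. The part of RNA from embryos, sperm or adult intestine in the values below was not tested. Of the 30 libraries, 6 were closer over all tested genes to the mean of a group from another time than to their own group, among them irld 6 h replicate 1, which was closest to irld at 12 h. The mean of a library's own group left that library out, so it rested on fewer libraries than the other means. Levels are given in CPM, the gene's counts scaled to the size of the library's worm-gene total after TMM, a correction for differences in library composition. Changes are log2 differences with their standard error from a fit of all 15508 genes with enough counts to be tested. A change was called at an adjusted p (Benjamini-Hochberg) under 0.05.

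The genes lie on 4 chromosomes of WBcel235. daf-36 (WBGene00007536) spans V:10223513-10225710 on the minus strand, dhs-16 (WBGene00000979) V:5983745-5985509 on the plus strand, and hsd-1 (WBGene00012394) I:13720125-13724453 on the minus strand. daf-9 (WBGene00000905) spans X:6196927-6200823 and daf-12 (WBGene00000908) X:10635908-10666875, both on the plus strand, and din-1 (WBGene00008549) spans II:11614770-11633609 on the minus strand. All are protein-coding, with 1 annotated transcript for daf-36, dhs-16 and hsd-1, 3 for daf-9, 10 for daf-12 and 7 for din-1. The counts sum over transcripts, so the isoforms of DAF-9, DAF-12 and DIN-1 were not told apart, including the short DIN-1 form known as the DAF-12 co-repressor. The 3′ exons of daf-36 and dhs-16 overlap a gene on the other strand by 9 and 74 bases. Whether the counting used strand is not given in the sources used here, so reads in those bases cannot be assigned. The partner of dhs-16, C10F3.7, had 375 counts over all libraries, against 501 for dhs-16 itself.

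The receptor and co-repressor genes were far more abundant than the genes of hormone synthesis. Per kilobase of exon and averaged over the 30 libraries, the level was 34.5 CPM for din-1 and 19.3 CPM for daf-12. On the same scale it was 1.10 CPM for dhs-16, 0.685 CPM for daf-36, 0.507 CPM for daf-9 and 0.340 CPM for hsd-1. The lowest library of daf-12, at 13.5 CPM per kilobase, stood above the highest library of any enzyme gene, which was 2.97 CPM per kilobase for dhs-16.

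Summed over all libraries, the enzyme genes had 313 counts for daf-36, 501 for dhs-16, 338 for daf-9 and 146 for hsd-1, against 26234 for daf-12 and 99865 for din-1. A single library held at most 50 counts of an enzyme gene. The filter on low counts kept 5 of the 6 genes. daf-12 and din-1 were over its limit of 1.04 CPM in all 30 libraries. dhs-16 was over it in 14 libraries, daf-9 in 13 and daf-36 in 11, most of them at 6 and 12 h, and no library at 72 h was over it for daf-36 or dhs-16. hsd-1 was over it in 1 library and was not tested in the fit.

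The question addressed by the time course is how the transcripts of this route change as starvation in L1 arrest goes on. Between 6 and 72 h, daf-36 and dhs-16 fell in N2, din-1 rose in both strains, and no change of daf-12 was called. In irld the fall of daf-36 was called and that of dhs-16 was just short of the threshold. daf-9 and hsd-1 showed no called change. In N2, 3 of the 5 tested genes were called at 72 h (1 higher, 2 lower), beside 51.1% of all tested genes (23.1% higher, 27.9% lower). In irld, 2 of the 5 were called (1 higher, 1 lower), beside 46.6% of all tested genes (20.6% higher, 26% lower). With about as large a share of all genes changing, these counts do not set the hormone genes apart.

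daf-36, the gene of the entry step, was highest at 6 h. The N2 libraries held 2.20, 1.87 and 1.44 CPM of daf-36 at 6 h and 0.701, 0.608 and 0.587 CPM at 72 h. The irld libraries held 0.578, 1.31 and 1.70 CPM at 6 h and 0.908, 0.359 and 0.120 CPM at 72 h. The N2 groups were apart, with 72 h lower, as for 34.5% of all tested genes, and the irld groups overlapped because irld 6 h replicate 1 was low, with 7 counts against 17 and 25 in the other replicates. In N2 the level fell from 1.84 ± 0.385 to 0.632 ± 0.0609 CPM (SD, n = 3), a log2 difference of −1.53 ± 0.51 (adjusted p = 0.0146). In irld it fell from 1.195 ± 0.568 to 0.462 ± 0.404 CPM, a log2 difference of −1.38 ± 0.54 (adjusted p = 0.0396). The call in N2 was lost without N2 6 h replicate 1 (−1.34, adjusted p = 0.0555), with ERCC scaling (adjusted p = 0.197), and in the fits without all libraries of replicate number 1, 2 or 3 (adjusted p = 0.0514, 0.175 and 0.0522). The call in irld was lost without any of irld 6 h replicate 2, irld 6 h replicate 3, irld 72 h replicate 2 or irld 72 h replicate 3 (highest adjusted p = 0.196), with log2 differences from −2.28 to −0.93 over the 6 omissions. It was also lost with DESeq2 (adjusted p = 0.0636), upper quartile scaling (0.0594), no filter (0.108), ERCC scaling (0.155) and without all libraries of replicate number 2 or 3 (0.349 and 0.560). In RNA from whole larvae, fewer cells of a type and less RNA per cell cannot be told apart.

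At the times between, the group means of daf-36 lay between those at 6 and 72 h in both strains. In N2 the group means were 0.869 ± 0.253 CPM at 12 h, 0.786 ± 0.418 CPM at 24 h and 1.03 ± 0.263 CPM at 48 h. In irld they were 0.872 ± 0.159, 0.930 ± 0.347 and 0.844 ± 0.404 CPM at the same times. Without a block for replicate number, none of these means differed from 6 h by a called amount. The block within each strain, described below for din-1, called daf-36 at 24 h in N2 (−1.26, adjusted p = 0.0379). Groups at neighbouring ranks of the 10 means all overlapped.

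dhs-16, the gene of the 3-keto step, had the largest fall of the synthesis genes in N2, with high libraries at 6 and 12 h and low libraries from 24 h on. The N2 libraries held 3.98, 2.18 and 3.90 CPM of dhs-16 at 6 h and 2.08, 2.50 and 1.94 CPM at 12 h. From 24 h on, the 9 N2 libraries held between 0 and 1.46 CPM, with 0.561, 0.608 and 0 CPM at 72 h. All 6 early N2 libraries were above all 9 later ones, a split not fixed in advance. The share of all tested genes with such a split was not counted. Between 6 and 72 h alone, the N2 groups were apart, with 72 h lower, as for 34.5% of all tested genes. The libraries with no read, N2 24 h replicate 1 and N2 72 h replicate 3, allow levels up to 0.343 and 0.352 CPM, the level of 3 counts.

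In irld, the libraries at 6 h held 0.578, 3.54 and 2.92 CPM of dhs-16, and those at 12 h held 3.242, 2.58 and 2.34 CPM. From 24 h on, the 9 irld libraries held between 0.359 and 1.57 CPM. The only early irld library within the later range was irld 6 h replicate 1, which had 7 counts of dhs-16. The group mean of dhs-16 in irld was 2.35 ± 1.56 CPM at 6 h and 2.72 ± 0.470 CPM at 12 h, against 0.739 ± 0.503 CPM at 24 h.

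The fall of dhs-16 in N2 was called at 3 times. The log2 difference from 6 h was −2.28 ± 0.71 at 24 h (adjusted p = 0.0137), then −2.12 ± 0.71 at 48 h (0.0170) and −3.08 ± 0.79 at 72 h (0.00204). From 6 to 72 h the level went from 3.35 ± 1.02 to 0.390 ± 0.338 CPM. In irld the difference at 72 h was −1.74 ± 0.72 (adjusted p = 0.0512), from 2.35 ± 1.56 to 0.698 ± 0.306 CPM. Without irld 6 h replicate 1 it was −2.20 and was called (adjusted p = 0.0118), and it was also called by DESeq2 (adjusted p = 0.0403), which did not call daf-36. Library size alone (adjusted p = 0.0138) and the fit without all libraries of replicate number 1 (0.0177) called it too. It was not called by limma-voom (−1.46, adjusted p = 0.139). Nor was it called without all libraries of replicate number 2 (−0.97, adjusted p = 0.461) or 3 (−1.79, 0.185). Over the omissions of single libraries the adjusted p reached 0.209. The call at 24 h in N2 was lost without N2 24 h replicate 1 or N2 24 h replicate 3, and that at 48 h without N2 6 h replicate 1, N2 6 h replicate 3 or N2 48 h replicate 2. The call at 72 h in N2 held without any single library and was lost in the fit without all libraries of replicate number 3 (−2.28, adjusted p = 0.0785). Over all 5 times together, dhs-16 changed in N2 (adjusted p = 0.00376) and in irld (adjusted p = 0.0378). The latter call was lost in 11 of the 15 fits that each left out 1 irld library.

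daf-9, the gene of the step that gives the hormone, was scattered among replicates, and the fit of all libraries under TMM scaling called no change from 6 h at any time. The N2 libraries held 1.36, 1.39 and 0.924 CPM of daf-9 at 6 h, 3.12, 1.49 and 1.36 CPM at 12 h and 0.571, 0.183 and 0.345 CPM at 24 h. At 48 h they held 0.144, 1.79 and 0.762 CPM and at 72 h 0.140, 0.729 and 1.41 CPM, so that the N2 groups at 48 and 72 h each ran from far below the 6 h libraries to at or above them. The N2 level at 24 h was the lowest group mean, 0.366 ± 0.195 CPM, with a log2 difference from 6 h of −1.76 ± 0.77 (adjusted p = 0.0778).

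The irld libraries held 1.90, 1.23 and 1.29 CPM of daf-9 at 6 h, 0.964, 1.503 and 0.711 CPM at 12 h and 0.477, 0.468 and 3.18 CPM at 24 h. At 48 h they held 1.01, 0.578 and 0.602 CPM and at 72 h 0.519, 0.359 and 0.837 CPM. All 3 irld libraries at 72 h were below all 3 at 6 h, as for 28.9% of all tested genes. The log2 difference was −1.34 ± 0.73 (adjusted p = 0.135) in irld, and −0.66 ± 0.70 (adjusted p = 0.450) in N2, where the groups overlapped. In irld it was called with library size alone (−1.78, adjusted p = 0.0435), where the median gene was at −0.59. It was also called there with ERCC scaling (−3.26, adjusted p = 0.0234).

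The library with the most daf-9, irld 24 h replicate 3, had 30 counts against 4 and 5 in the other replicates of its group. eak-3 and eak-4, other genes of the XXX cells, were high in the same library, a comparison and genes chosen after the values were seen. eak-4, which acts in the XXX cells to hold back dauer formation, was at 7.32 CPM there, against 1.31 and 2.15 CPM in the other replicates. eak-3, a gene of the same kind, was at 3.71 CPM against 0.716 and 0.842 CPM, and both were at their highest of all 30 libraries. The library with the next most daf-9, N2 12 h replicate 1, was second for both eak-3 (2.43 CPM) and eak-4 (4.74 CPM). The library with the least daf-9, N2 72 h replicate 1, was the lowest of all for eak-3 and eak-4 (0.421 CPM each) and had no read of the XXX cell gene sdf-9. N2 48 h replicate 1, also with 1 count of daf-9 (0.144 CPM), held 0.863 CPM of eak-3. hsd-1 was not high in the libraries with the most daf-9: it was at 0.531 CPM in irld 24 h replicate 3 and 0.347 CPM in N2 12 h replicate 1, within the range of most libraries. In N2 72 h replicate 1 hsd-1 had no read, which allows a level up to 0.421 CPM. Summed over daf-9, hsd-1, eak-3, eak-4 and sdf-9, the XXX markers ranged from 3.10 to 16.03 CPM in irld at 24 h and from 2.99 to 4.48 CPM in N2 at 24 h. This sum includes daf-9, by which the libraries above were picked, so its spread is not separate from that of daf-9. The part of the spread of the other XXX genes in the daf-9 values was not tested.

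hsd-1 was close to the limit of detection at every time. Its counts ran from 0 to 15 per library, and group means lay between 0.302 ± 0.285 CPM (N2 at 6 h) and 0.779 ± 0.769 CPM (N2 at 48 h). N2 6 h replicate 3 and N2 72 h replicate 1 had no read, which allows levels up to 0.308 and 0.421 CPM. In an exact two-sided permutation test with times exchanged within strain, the mean of 0.553 CPM at 72 h and that of 0.334 CPM at 6 h gave p = 0.310 (n = 6 libraries each, smallest possible p = 0.005). Its paralogs hsd-2 and hsd-3 had 300 and 26 counts over all libraries, and reads shared between such copies could be split among them.

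**Figure D1:**
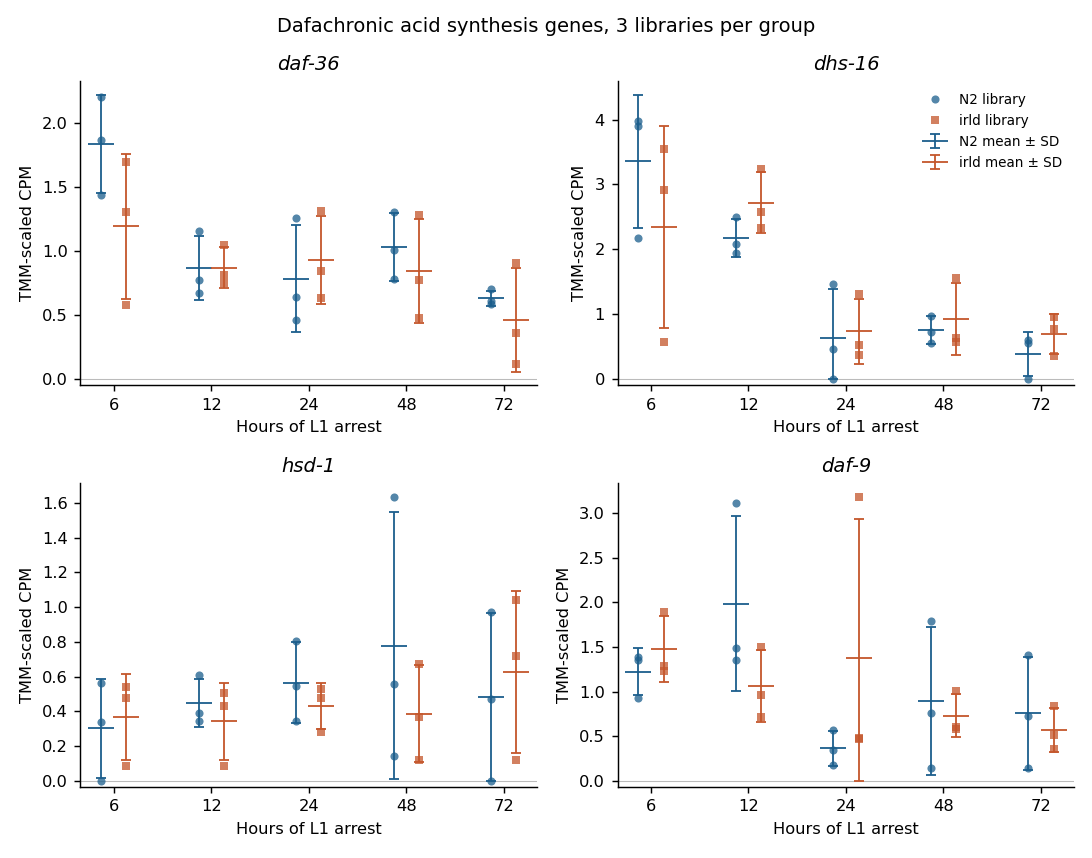
Levels of the 4 synthesis genes in TMM-scaled CPM against hours of L1 arrest, with 1 point per library (circles N2, squares irld) and lines for the mean ± SD of 3 libraries, where lower bars end at 0. dhs-16 libraries at 6 and 12 h lie above the later ones except for irld 6 h replicate 1 at 0.578 CPM, and daf-9 in irld at 24 h has a single library at 3.18 CPM beside 0.477 and 0.468 CPM.

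daf-12, the gene of the hormone receptor, showed no called change through 72 h of starvation. The N2 libraries held 91.6, 81.4 and 75.8 CPM of daf-12 at 6 h and 113, 81.0 and 80.1 CPM at 72 h. The irld libraries held 91.2, 65.9 and 82.8 CPM at 6 h and 92.2, 106 and 79.4 CPM at 72 h. The groups overlapped in both strains, and over all 10 groups the means ran only from 79.8 ± 21.7 CPM (N2 at 24 h) to 92.5 ± 13.3 CPM (irld at 72 h). The log2 difference between 72 and 6 h was 0.14 ± 0.17 in N2 (95% interval −0.22 to 0.50, adjusted p = 0.528) and 0.21 ± 0.17 in irld (−0.15 to 0.57, adjusted p = 0.335). Over all 5 times the adjusted p was 0.884 in N2 and 0.679 in irld.

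din-1, the gene of the co-repressor, rose through arrest in both strains. The N2 libraries held 272, 247 and 166 CPM of din-1 at 6 h, and 583, 389 and 427 CPM at 72 h. The irld libraries held 276, 273 and 181 CPM at 6 h, and 485, 411 and 417 CPM at 72 h. All 3 libraries at 72 h were above all 3 at 6 h in both strains, as for 27.1% of all tested genes in N2 and 23.1% in irld. The level rose from 229 ± 55.6 to 466 ± 103 CPM in N2, a log2 difference of 1.03 ± 0.19 (adjusted p = 6.99e-05). In irld it rose from 243 ± 54.3 to 438 ± 40.8 CPM, a log2 difference of 0.85 ± 0.19 (adjusted p = 0.000666). Both calls held without any single library of the groups compared and were lost with ERCC scaling (0.78, adjusted p = 0.706 in N2; −0.59, adjusted p = 0.588 in irld).

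The rise of din-1 was gradual. Group means in N2 were 288 ± 7.27 CPM at 12 h, 308 ± 44.9 CPM at 24 h and 372 ± 82.0 CPM at 48 h, and in irld 301 ± 16.1, 323 ± 16.6 and 405 ± 51.6 CPM. In each strain the 5 means stood in the order of time, and the share of all tested genes with such an order was not counted. The difference from 6 h was called at 48 h in N2 (0.70 ± 0.19, adjusted p = 0.00352) and in irld (0.73 ± 0.19, adjusted p = 0.00284), and not at 12 or 24 h. A fit with the replicate number as a block within each strain was added after the data were seen. It called din-1 at 24 h in irld (0.42, adjusted p = 0.0151), where same-numbered libraries at 6 and 24 h deviated together. The same fit called din-1 at 24 h in N2 (0.44, adjusted p = 0.0106), where 2 of 3 same-numbered pairs had r above 0.1. Among the 10 ranked means, neighbours overlapped everywhere except between N2 at 12 h and irld at 6 h.

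**Figure D2:**
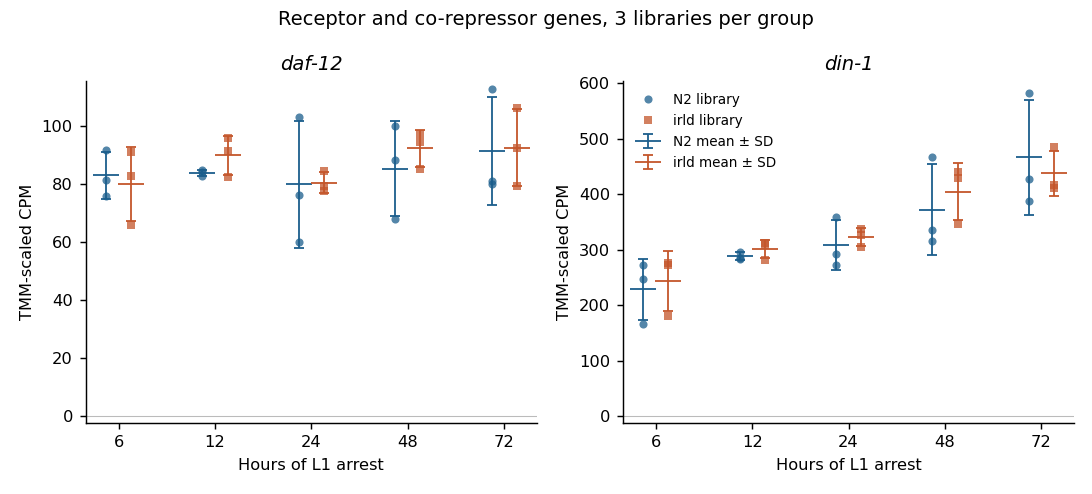
Levels of daf-12 and din-1 in TMM-scaled CPM against hours of L1 arrest, with 1 point per library (circles N2, squares irld) and lines for the mean ± SD of 3 libraries. din-1 climbs from 229 to 466 CPM in N2 and from 243 to 438 CPM in irld, and daf-12 means stay between 79.8 and 92.5 CPM.

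The balance of co-repressor to receptor transcripts was read within each library as the ratio of din-1 to daf-12 raw counts, a measure chosen after the values were seen that no scaling factor moves. In N2 the ratio was 2.97, 3.04 and 2.19 at 6 h and 5.17, 4.80 and 5.33 at 72 h. In irld it was 3.03, 4.14 and 2.18 at 6 h and 5.25, 3.88 and 5.25 at 72 h. The N2 groups were apart, and the irld groups overlapped through irld 6 h replicate 2 and irld 72 h replicate 2. The share of other genes whose ratio to daf-12 sets these groups apart was not counted. The ratio rests on the same din-1 counts as above, so it is not separate evidence of a rise. The means went from 2.74 ± 0.472 through 3.44 ± 0.124, 3.96 ± 0.541 and 4.38 ± 0.494 to 5.10 ± 0.271 in N2, and from 3.12 ± 0.982 through 3.36 ± 0.367, 4.03 ± 0.361 and 4.41 ± 0.701 to 4.80 ± 0.793 in irld.

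**Figure D3:**
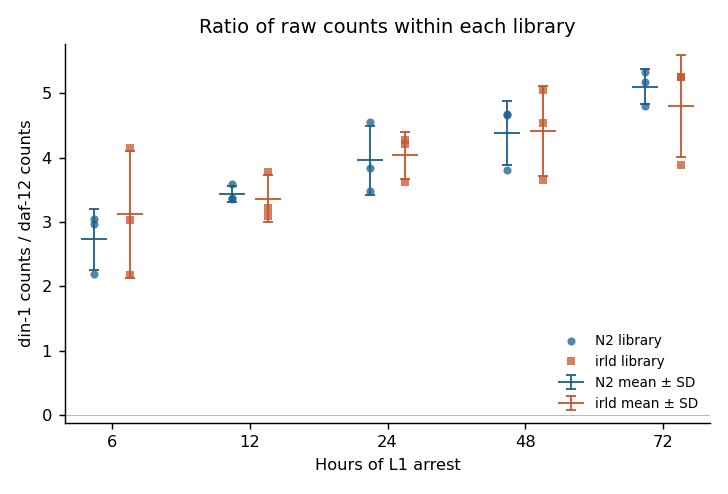
Ratio of din-1 to daf-12 raw counts within each library against hours of L1 arrest, with 1 point per library (circles N2, squares irld) and lines for the mean ± SD of 3 libraries. The mean ratio goes from 2.74 to 5.10 in N2 and from 3.12 to 4.80 in irld, and the 6 and 72 h libraries overlap in irld only.

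Set against 6 h at each time without a replicate block, calls among the 5 tested genes came late. At 12 h none was called in N2, beside 6.21% of all tested genes, or in irld, beside 4.34%. At 24 h 1 was called in N2 (dhs-16, lower), beside 34.2% of all genes (18.3% lower), and 0 in irld, beside 30.6%. At 48 h 2 were called in N2 (dhs-16 lower, din-1 higher), beside 45.6% (20% higher, 25.6% lower), and 1 in irld (din-1, higher), beside 42% (18.1% higher). Over all 5 times together, dhs-16 and din-1 were called in N2, beside 49.6% of all genes, and in irld, beside 43.1%. At 12 h edgeR gave an unadjusted p under 0.05 for daf-36 in N2 and for no other of these genes in either strain, and DESeq2 and limma-voom also called 0 of them. The replicate block within each strain also called 0 of them at 12 h, where it raised the calls over all genes from 963 to 1881 in N2 and from 673 to 1484 in irld. At 24 h this block called daf-36, dhs-16 and din-1 in N2 and din-1 in irld. It raised the calls over all genes at 24 h from 5296 to 6327 in N2 and from 4747 to 5758 in irld.

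With the change averaged over both strains, a comparison added after the data were seen, 72 h differed from 6 h for daf-36 (−1.46 ± 0.37, adjusted p = 0.00149), dhs-16 (−2.41 ± 0.54, adjusted p = 0.000369) and din-1 (0.94 ± 0.13, adjusted p = 1.23e-06), beside 62.6% of all tested genes. daf-9 was at −1.003 ± 0.506 (adjusted p = 0.0874) and daf-12 at 0.17 ± 0.12 (adjusted p = 0.221). At 12, 24 and 48 h the same average called 0, 2 and 2 of the 5 genes (dhs-16 and din-1 at 24 and 48 h), beside 19.3%, 48.2% and 58.6% of all genes. At 72 h daf-36, dhs-16 and din-1 were called in each of the 12 fits that left out 1 library of the groups compared. daf-36 was not called in the fits without all libraries of replicate number 2 or 3, and din-1 was not called with ERCC scaling.

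The median of all tested genes at 72 h lay at −0.11 in N2 and −0.13 in irld under TMM scaling. Scaled by library size alone the median gene was at −0.63 in N2, and daf-12 in N2 was then at −0.39 (adjusted p = 0.0226), which is 0.23 above that median. Scaled by the ERCC spike-in, which was added in proportion to total RNA, the median gene in irld was at −1.58 and din-1 at −0.59 (adjusted p = 0.588), which is 1.00 above it. Under ERCC scaling daf-9 in irld was called (−3.26, adjusted p = 0.0234), and daf-12 was at −1.32 (adjusted p = 0.233). The spike-in share of worm and ERCC counts was uneven, from 0.304% in irld 6 h replicate 1 to 3.88% in irld 72 h replicate 2. Its median was 0.774%, 2.975% and 2.05% in libraries of replicate number 1, 2 and 3. The part of this spread in the ERCC-scaled results was not tested. The directions of daf-12 and din-1 given above are relative to the bulk of the polyadenylated RNA.

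**Figure D4:**
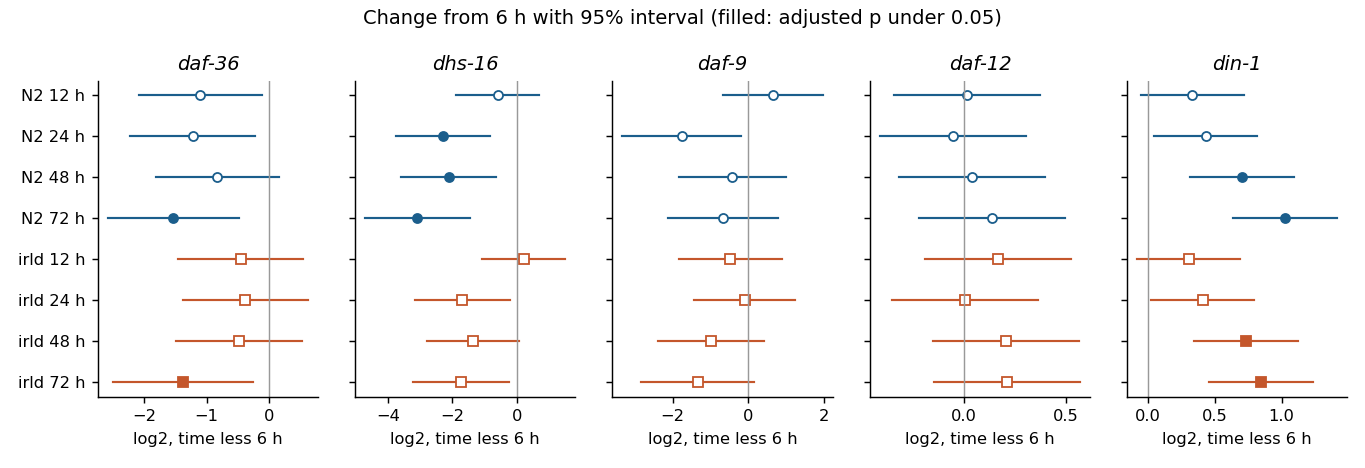
Log2 difference from 6 h of the 5 tested genes at 12, 24, 48 and 72 h in N2 (circles) and irld (squares), with 95% intervals and filled symbols for an adjusted p under 0.05. dhs-16 intervals lie left of 0 from 24 h on in N2, din-1 intervals lie right of 0 from 24 h on in both strains, and all daf-12 intervals include 0.

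The strain comparison asks whether mutation of irld-39 and irld-52 goes with a different level of these transcripts during arrest. No difference was found. In edgeR 0 of 5 tested genes were called for the strain difference averaged over 5 times, beside 0% of all 15508 genes, and 0 at each single time, where 0% of all genes were also called. DESeq2 and limma-voom likewise called 0 genes. At an unadjusted p under 0.05, edgeR gave 837 genes for the average, none of them among the 5, and between 171 and 446 genes at single times.

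The average strain difference, irld less N2, was small for the abundant genes and loosely bounded for the rare ones. For daf-12 it was 0.04 ± 0.08 (95% interval −0.12 to 0.20) and for din-1 0.05 ± 0.08 (−0.12 to 0.22). For daf-36 it was −0.21 ± 0.23 (−0.69 to 0.27), for dhs-16 0.21 ± 0.33 (−0.48 to 0.90) and for daf-9 0.10 ± 0.32 (−0.56 to 0.76). The intervals of daf-12 and din-1 end within 0.22 of 0 on the log2 scale, whereas those of the 3 enzyme genes leave room for larger differences in either direction. hsd-1 averaged 0.430 CPM in the 15 irld libraries and 0.515 CPM in the 15 N2 libraries (exact two-sided permutation test within times, p = 0.539).

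The nearest to a strain difference was daf-9 at 24 h. Its log2 difference was 1.91 ± 0.78 with an unadjusted p of 0.0213 and an adjusted p of 1.00, at 1.38 ± 1.56 CPM in irld and 0.366 ± 0.195 CPM in N2. The groups overlapped, and the irld mean was set by the library with 30 counts described above, in which the XXX cell genes eak-3 and eak-4 were also at their highest.

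The courses of the strains were also compared. The change of the strain difference with time (4 degrees of freedom) was called for 0 of 5 genes, beside 0% of all genes, and 0.767% of all genes had an unadjusted p under 0.05. daf-9 had the lowest unadjusted p of the 5, 0.109. How far the change to 72 h differed between irld and N2 was called for 0 of 5 genes, beside 0%, with 303 genes at an unadjusted p under 0.05. That difference was 1.34 ± 1.10 for dhs-16 and −0.18 ± 0.27 for din-1 (95% interval −0.73 to 0.36), so that the call of dhs-16 at 72 h in N2 and not in irld is not a shown difference between strains. In the authors' deposited table, which tests the strain difference over all times, the p-value was 0.179 for daf-9 and the FDR was 1.00 for each of the 5 genes listed. hsd-1 was not listed there.

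**Figure D5:**
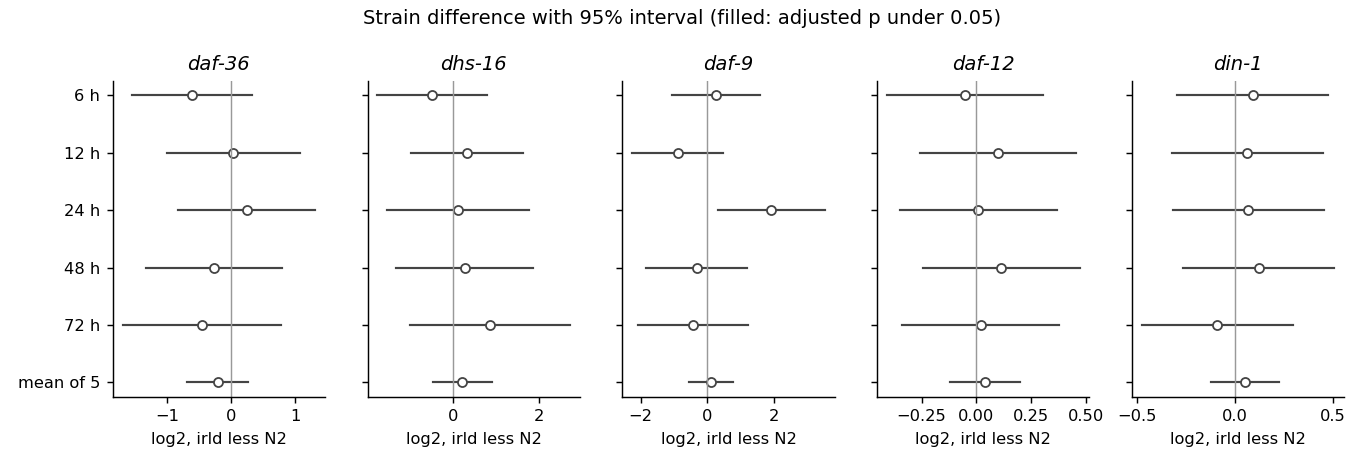
Log2 difference of irld less N2 for the 5 tested genes at each time and averaged over the 5 times, with 95% intervals (filled symbols would mark an adjusted p under 0.05). No symbol is filled, and the only interval that leaves out 0 is that of daf-9 at 24 h, at 1.91.

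Other genes of the sterol route were read from lists chosen with earlier results of these data known. Of 10 genes of sterol supply and side branches, 9 were tested, and between 6 and 72 h 4 rose and 0 fell in N2, while 3 rose and 0 fell in irld, beside 23.1% higher and 27.9% lower of all tested genes in N2 and 20.6% and 26% in irld. The median log2 change of the list was −0.11 in N2 and −0.30 in irld, beside −0.11 and −0.13 over all tested genes. ncr-2, a homolog of the Niemann-Pick C1 cholesterol transporter, rose the most, from 2.17 ± 0.202 to 27.6 ± 8.77 CPM in N2 (3.65 ± 0.35, adjusted p = 5.03e-09) and from 1.74 ± 0.579 to 31.7 ± 3.34 CPM in irld (4.19 ± 0.36, adjusted p = 1.07e-09). Its relative ncr-1, at 88.7 ± 4.60 CPM in N2 at 6 h, gave −0.23 ± 0.15 in N2 (adjusted p = 0.213) and −0.31 ± 0.15 in irld (adjusted p = 0.0917). nhr-8, a nuclear receptor of sterol balance related to DAF-12, rose in N2 (0.99 ± 0.21, adjusted p = 0.000325) and in irld (0.86 ± 0.21, adjusted p = 0.00137). let-767, a steroid dehydrogenase-like gene, rose in N2 (0.86 ± 0.22, adjusted p = 0.00256) and in irld (0.79 ± 0.22, adjusted p = 0.00551). nlt-1, a gene of a sterol carrier-like protein, rose in N2 (0.55 ± 0.22, adjusted p = 0.0414), with 0.42 ± 0.22 in irld (adjusted p = 0.129). strm-1, a sterol methyltransferase gene that diverts precursors from the hormone, was not called in N2 (−1.71 ± 0.89, adjusted p = 0.114) or irld (−1.24 ± 0.83, adjusted p = 0.231).

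Of 6 genes of partners and relatives of DAF-12, 5 were found and tested, and 2 rose and 0 fell in each strain. Beside this, 23.1% of all tested genes were higher and 27.9% lower in N2, and 20.6% and 26% in irld. They were nhr-8, which is also in the sterol list, and sin-3, a gene of the histone deacetylase co-repressor complex (0.70 ± 0.14, adjusted p = 0.000266 in N2 and 0.58 ± 0.14, adjusted p = 0.0018 in irld). The median of this list was 0.41 in N2 and 0.34 in irld. Of 6 other genes of the XXX cells and the eak group, 5 were found and tested, and 0 rose or fell in either strain. Beside this, 51.1% of all tested genes were called in N2 and 46.6% in irld. eak-3, eak-4, sdf-9 and eak-6 had 399, 801, 216 and 519 counts over all libraries, so a change had to be large to be called. The medians of this list of XXX cell and eak genes were −0.08 in N2 and −0.19 in irld.

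Of 9 genes reported downstream of DAF-12, all tested, 2 rose and 3 fell in each strain, with medians of 0.01 in N2 and −0.08 in irld. The share called, 5 of 9, stands near that of all tested genes, 51.1% in N2 and 46.6% in irld. hbl-1, a zinc finger gene of developmental timing that liganded DAF-12 represses through let-7 family microRNAs, fell from 186 ± 17.2 to 53.99 ± 9.99 CPM in N2 (−1.79 ± 0.31, adjusted p = 3.58e-05). In irld hbl-1 fell by 1.09 on the log2 scale (SE 0.30, adjusted p = 0.0046). lin-28, a timing gene of an RNA-binding protein, rose by 1.22 ± 0.14 in N2 (adjusted p = 7.41e-08) and 1.12 ± 0.14 in irld (adjusted p = 3.3e-07). fard-1, a fatty acyl-CoA reductase gene, rose by 1.79 ± 0.26 in N2 and 1.88 ± 0.26 in irld (adjusted p = 3.65e-06 and 2.39e-06). cdr-6 had log2 falls of −1.79 (N2) and −1.67 (irld; adjusted p = 4.93e-06 and 1.32e-05). lips-17, a lipase-like gene, went from 53, 73 and 27 counts at 6 h to 2, 0 and 0 counts at 72 h in N2 and was called lower in both strains (adjusted p = 3.99e-05 and 0.000102). The members of this list did not move in a single direction, and the strain average was called for 0 genes of any of the 4 lists.

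Among 7294 other named genes with a mean of at least 2 CPM, those whose 10 group means tracked each hormone gene most closely were listed by Pearson's r on the log2 scale, as a description in which all points share the same libraries. For dhs-16 they were the homeobox gene ceh-37 (r = 0.976), ensh-1 (0.964) and the sodium-coupled carboxylate transporter gene nac-1 (0.960). For daf-36 they were ccd-5 (0.949), pals-16 (0.926) and the BAF complex subunit gene swsn-3 (0.923). For daf-9 they were the ligand-gated channel gene lgc-50 (0.959), clec-55 (0.950) and the dopamine transporter gene dat-1 (0.942). For daf-12 they were the endosomal GTPase gene rab-5 (0.903), sulp-4 (0.888) and the lipase gene atgl-1 (0.887). For din-1 they were tag-196 (r = 0.997), the mitophagy gene dct-1 (0.993) and the ubiquitin ligase gene eel-1 (0.993). Among the members themselves, over the same 10 means, dhs-16 and daf-9 had r = 0.807 and daf-36 and din-1 had r = −0.800.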

How the data were processed

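Polyadenylated RNA of whole L1 larvae was sequenced in 30 libraries. The submitters' processing notes name Bowtie 1.2.2 for alignment and HTSeq 0.11.2 for counting. The use of strand is not given in the sources used here. The authors deposited raw counts per gene, for each sample and in a table of the series, and the values were the same in all 30 libraries; between 35.3% and 40.7% of reads were not aligned. The authors also deposited CPM values, which were not used, and an edgeR 3.24.4 table of log2 fold changes, in which each gene also has an F score, a p-value, an FDR and its log2 mean CPM.

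From the deposited counts, edgeR 4.0.16 in R 4.3.3 was run with TMM scaling (factors 0.781 to 1.24), and its group-wise filter (15508 genes left). Each group had its own coefficient in 1 robust quasi-likelihood fit of all libraries. P-values were adjusted by Benjamini-Hochberg over the genes left, and the steps were tested on simulated data. Same-numbered libraries deviated together, with every r above 0.1, between 6 and 12 h in both strains (r from 0.191 to 0.562) and between 6 and 24 h in irld (0.124 to 0.161), and the numbers were taken to pair the libraries in those comparisons only; the pairing comes from the data, not the labels. hsd-1, which the filter removed, was compared by exact permutation. Alternatives were other scalings (DESeq2 size factors, upper quartile, library size, ERCC), other filters, DESeq2 1.42.0, limma-voom (limma 3.58.1), fits of the compared groups alone, a replicate block, a block within each strain (added later) and omission of libraries. No library was a copy: the chi-square per gene between replicates was 7.25 at the lowest and 93.5 at the highest. Depth of 7563687 to 19815884 counts gives a level of 3 counts, used as the limit for a library with no read. Gene positions are from Ensembl 115 on WBcel235. Intervals are at 95%.

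The 6 genes and the lists were chosen with earlier results of these data known. All 6 are described, with every called gene of lists under 10 genes, the 4 smallest p of the longer list, and the 3 named genes with the closest course per tested gene; genes named beyond this rule (ncr-1, strm-1 and the XXX cell genes in single libraries) were chosen after their values were seen.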

Additional observations from a re-analysis of the deposited data

How the results depend on the processing

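The strain comparisons gave 0 called hormone genes under every alternative that was run, for the average over 5 times, single times and both tests of the course. For changes from 6 h, the count of called hormone genes moved by more than 1.5 times as follows, and the cause was not tested unless named. Upper quartile scaling gave 2 in N2 at 24 h (1 in the report), 1 in irld at 24 h (0), 1 in irld at 72 h (2) and 1 for both strains at 12 h (0). Library size alone gave 4 over all times in N2 (2), 1 in irld (2), 3 in N2 at 24 h, 1 in irld at 24 h, 4 in irld at 72 h, and 4 and 5 for both strains at 48 h (2) and 72 h (3). ERCC scaling gave 1 over all times in irld, 2 in N2 at 24 h, 1 in N2 at 48 h (2), 1 in N2 at 72 h (3), 2 in irld at 48 h (1), 1 in irld at 72 h, and 4 for both strains at 24 h (2) and at 48 h. No filter gave 1 in irld at 72 h, and so did fitting irld at 6 and 72 h alone, where the filter dropped daf-36 and dhs-16. limma-voom gave 1 over all times in irld, 2 in N2 at 24 h and 4 for both strains at 24 h. Calls over all 15508 tested genes moved as well. Library size alone called 8933 of them over all times in N2, against 7686 in the fit used above. ERCC scaling called 1873 in N2 at 72 h (7919 above) and 2134 in N2 at 24 h (5296 above), where its count of hormone genes was higher. The genes behind a count could differ. Library size alone did not call din-1 over all times or at 24 h and 48 h in either strain, and its 1 call in irld at 48 h was dhs-16. The 1 call of ERCC scaling in irld at 72 h was daf-9. DESeq2 in irld at 72 h called dhs-16 and not daf-36, and fitting N2 at 6 and 24 h alone called daf-9 and not dhs-16. Of the single values at 72 h, daf-12 turned to −0.39 (N2) and −0.25 (irld) with library size alone and to −0.10 (N2) and −1.32 (irld) with ERCC scaling, and din-1 in irld to −0.59 with ERCC scaling. daf-12 in N2 was at −0.05 without N2 72 h replicate 1.

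Between strains, replicate numbers did not pair the libraries: of 15 pairs of irld and N2 libraries with the same time and number, 6 had deviations that correlated above 0.1 (r from −0.159 to 0.303), and 6 of 15 N2 libraries correlated best with their own number. Within strains, 9 of 12 pairs of a later N2 library and the N2 6 h library of the same number were above 0.1 (highest 0.364), and 10 of 12 in irld (highest 0.562). All 3 pairs were above 0.1 at 12 h in both strains and at 24 h in irld, and 2 of 3 in the other comparisons. With the number as a replicate block, the count was 3 in N2 at 24 h, 1 in irld at 24 h and 1 for both strains at 12 h, and the calls over all genes went from 963 to 1550 in N2 at 12 h and from 673 to 1157 in irld at 12 h. A block within each strain, added after the data were seen, gave the same 3 counts of hormone genes. No other count of called hormone genes moved by more than 1.5 times under either block.

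Without a replicate number or a single library, counts ran from 1 to 3 over all times in N2, 0 to 3 in irld, 0 to 2 in N2 at 24 h, 1 to 2 at 48 h and 1 to 3 at 72 h. In irld they ran from 0 to 2 at 24 h, 1 to 2 at 48 h and 1 to 3 at 72 h, and for both strains from 0 to 1 at 12 h, 1 to 3 at 24 h and 1 to 3 at 48 h. The strain average of daf-9 was −0.20 without irld 24 h replicate 3. The enzyme genes, with at most 50 counts in a library, limit what can be seen: for them a change has to be large to be called.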
